A study of Homo sapiens with 16 samples.

Results

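The miR-200 family consists of miR-200a, miR-200b, miR-200c, miR-141 and miR-429. The arrays carried 9 probes named for its mature forms (hsa-miR-141-3p, hsa-miR-141-5p, hsa-miR-200a-3p, hsa-miR-200a-5p, hsa-miR-200b-3p, hsa-miR-200b-5p, hsa-miR-200c-3p, hsa-miR-200c-5p and hsa-miR-429), chosen by these names among 2565 probes named for human miRNAs. They were examined in OE19 cells, a human esophageal adenocarcinoma (EAC) cell line. Of the 9 members, 7 were among the 382 probes in the authors' table of normalized values. The other members, miR-141-5p and miR-200c-5p, are described by their intensities above background.

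The study treated OE19 cells with 100 μM telmisartan, an angiotensin II type 1 receptor blocker used against high blood pressure, for 48 h. Cells kept for the same time without telmisartan served as control. Total RNA of 8 control samples and 8 telmisartan samples was hybridized to 16 arrays, numbered 1 to 8 in each group, with 1 probe per miRNA. All cells were of 1 established line grown in serum, so no other line, tissue or dose is covered here. Whether the samples of a group were separate cultures is not given in the sources used here. The p-values cover the spread between these 16 samples alone, and part or all of it may be technical. In bulk RNA, fewer cells with a miRNA and less of it per cell cannot be told apart.

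MicroRNAs lower the stability and translation of mRNAs that pair with their seed, the bases near the 5′ end. The miR-200 family is abundant in epithelial cells and represses ZEB1 and ZEB2, which are transcription factors that silence the gene of the adhesion protein E-cadherin. ZEB1 in turn represses the miR-200 genes, and this mutual repression is a known switch between the epithelial and the mesenchymal state. The genes lie in a pair of clusters, each made as a common primary transcript, with miR-200b, miR-200a and miR-429 at 1p36 and miR-200c and miR-141 at 12p13.

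The seed and the locus divide the family differently, and the mature 3p sequences are shown because the comparisons turn on this. They were taken from RefSeq (GRCh38.p14), whose table of 2370 mature miRNAs held 8 of the 9 members, and all lie on the + strand. Capitals mark the seed, bases 2 to 8 from the 5′ end.
miR-200a-3p (1p36, chr1:1167916-1167937): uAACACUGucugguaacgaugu
miR-141-3p (12p13, chr12:6964155-6964176): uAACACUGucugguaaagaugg
miR-200b-3p (1p36, chr1:1167160-1167181): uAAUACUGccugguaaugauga
miR-200c-3p (12p13, chr12:6963742-6963764): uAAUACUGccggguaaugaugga
miR-429 (1p36, chr1:1169055-1169076): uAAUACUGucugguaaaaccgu

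The seed AACACUG was shared by miR-200a-3p and miR-141-3p, and the seed AAUACUG by miR-200b-3p, miR-200c-3p and miR-429. No other mature miRNA of the table had either seed. The base at position 4 set the seeds apart (U4C from miR-200b-3p to miR-200a-3p, counted from the 5′ end). miR-200a-3p and miR-141-3p differed at 2 of 22 positions (C17A and U22G), although they come from different chromosomes. miR-200b-3p and miR-200c-3p also differed at 2 of the first 22 positions (U11G and A22G). Across seeds but within a cluster there were 4 differences between miR-200b-3p and miR-200a-3p and 4 between miR-200c-3p and miR-141-3p (U4C, C9U, G11U and U17A). miR-429 was further from the members with its seed (6 differences from miR-200b-3p and 7 from miR-200c-3p) than from miR-200a-3p and miR-141-3p (5 each). Likeness over the whole sequence thus followed the seed among the other 3p members but not for miR-429.

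The 5p arms come from the other side of the same hairpins and are shown to set them apart from the 3p arms.
miR-200a-5p (1p36, chr1:1167878-1167899): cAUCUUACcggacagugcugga
miR-200b-5p (1p36, chr1:1167124-1167145): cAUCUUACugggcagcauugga
miR-200c-5p (12p13, chr12:6963703-6963724): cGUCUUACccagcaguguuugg

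miR-200a-5p and miR-200b-5p shared the seed AUCUUAC, which no other miRNA of the table had. The seed of miR-200c-5p, GUCUUAC, also occurred in miR-550a-3p, which had no normalized value. The 5 mature forms from 1p36 lay within 1953 bases of chromosome 1 (1167124 to 1169076), and the 3 matched from 12p13 within 474 bases of chromosome 12 (6963703 to 6964176).

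Between 453 and 1621 probes per array were detected in control (median 803.5) and between 458 and 1884 with telmisartan (median 930.5), at backgrounds of 14.9 to 32.5 and 19.9 to 33.6. All 4 listed miRNAs of columnar gut epithelium, miR-192-5p, miR-194-5p, miR-215-5p and miR-375, were detected on all 16 arrays. Their summed intensity above background was 2330 to 5622 in control and 2690 to 4554 with telmisartan. Of the squamous miRNAs, miR-203a-3p was detected on every array apart from 1 with a spot marked not good, at a median of 304 above background. This was above the medians of the columnar miR-215-5p (78.6) and miR-375 (19.5) and below those of miR-192-5p (1295) and miR-194-5p (2560). The squamous miR-205-5p was detected on 3 control and 5 telmisartan arrays, at no more than 4.85. Of the other cell types, the 5 blood miRNAs summed to 3.58 to 26.4 in control and 0 to 19.97 with telmisartan, and the miRNAs of smooth muscle and fibroblasts to at most 6.20. Those of muscle, neurons and liver reached at most 3.73 on any array. Endothelial miR-126-3p was detected on all 16 arrays (19.3 to 68.6 in control and 37.3 to 77.8 with telmisartan), and its part in the results was not tested.

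In the comparison of telmisartan with control, miR-200a-3p and miR-141-3p, the pair with the seed AACACUG, fell, at 44.6% and 56.6% of their control levels. miR-200b-3p and miR-200c-3p, made from the same primary transcripts as this pair, were at 98.9% and 115% of control and did not pass the test, nor did miR-429, miR-200a-5p and miR-200b-5p. Thus 2 of the 7 tested members fell and 0 rose, where 28 of all 382 probes fell (7.33%) and 37 rose (9.69%). The test was limma on log2 of the authors' normalized values, with an adjusted p under 0.05 over all 382 probes as the threshold. The median log2 fold change of the 7 members was -0.39, beside -0.01 over all probes. With the replicate number as a block, 3 of the 7 fell, where 9.95% of all probes did.

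miR-200a-3p, the member from 1p36 with the seed AACACUG, had normalized intensities of 593, 564, 760, 630, 217, 269, 213 and 290 on control arrays 1 to 8. On telmisartan arrays 1 to 8 the values were 217, 203, 198, 108, 186, 156, 208 and 158. Thus 7 of the 8 telmisartan arrays lay below every control array, and the controls themselves fell into a high set (arrays 1 to 4) and a low set (arrays 5 to 8). The log2 mean went from 8.62 ± 0.76 to 7.45 ± 0.33 (SD, n = 8 each, limma adjusted p = 0.00809). This is a log2 fold change of -1.17 (SE 0.28, 95% confidence interval -1.75 to -0.58).

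miR-141-3p, the member from 12p13 with the same seed, had 365, 329, 372, 357, 173, 208, 198 and 203 on control arrays 1 to 8. It had 158, 169, 156, 145, 132, 141, 143 and 153 on the telmisartan arrays. No telmisartan array reached the lowest control array (8 of 8 lay below it), which was so for 5 of all 382 probes (1.31%). The log2 mean went from 8.04 ± 0.47 to 7.22 ± 0.11 (SD, n = 8 each, limma adjusted p = 0.00222). This is a log2 fold change of -0.82 (SE 0.17, 95% confidence interval -1.17 to -0.47). Before normalization the groups overlapped, at 160 to 370 above background in control and 133 to 175 with telmisartan.

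The calls of this pair, more than the size of the falls, depended on the scaling of the arrays. With median scaling in place of quantile normalization the log2 fold changes were -1.26 for miR-200a-3p and -0.82 for miR-141-3p, with an adjusted p of 0.0563 for each (limma). With no scaling they were -1.08 and -0.63, and both passed (limma adjusted p = 0.0310 and 0.0234). With quantile normalization over all probes detected on each array, the log2 fold changes were -1.05 for miR-200a-3p and -0.67 for miR-141-3p, with an adjusted p of 1 for each (limma).

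**Figure D1:**
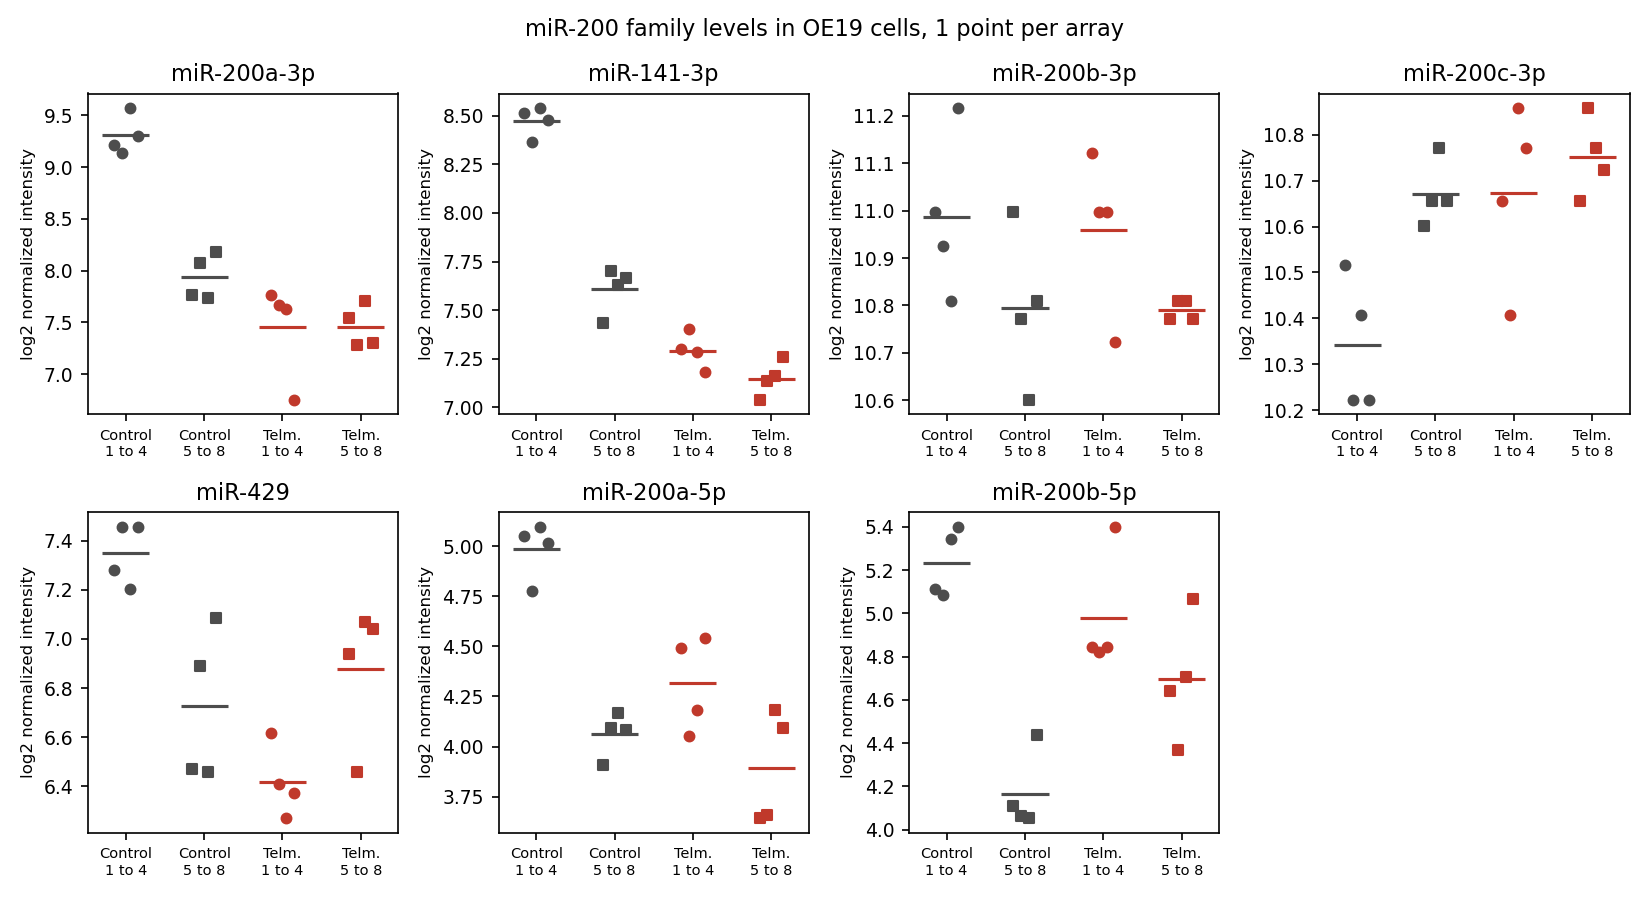
Log2 of the authors' normalized intensity (vertical axes, each with its own range) of the 7 tested members, with 1 point per array and a line at the mean of each set of 4 arrays, in control (grey) and telmisartan (red, Telm.), split into arrays 1 to 4 and 5 to 8. All telmisartan points of miR-141-3p lie below the control points, and control arrays 1 to 4 stand above control arrays 5 to 8 for miR-200a-3p (564 to 760 against 213 to 290 on the linear scale).

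The seed AAUACUG members were measured next. miR-200b-3p, the first miRNA of the 1p36 cluster, ranged from 1553 to 2379 in control (median 1869) and from 1691 to 2229 with telmisartan (median 1794). The groups overlapped over most of their range, and the value 2044 occurred on 4 arrays, since quantile normalization gives the same value to the same rank on every array. The log2 mean was 10.89 ± 0.19 in control and 10.87 ± 0.14 with telmisartan (SD, n = 8 each, limma adjusted p = 0.958). Its log2 fold change was -0.02 (95% confidence interval -0.20 to 0.17), an interval that leaves out the changes measured for miR-200a-3p and miR-141-3p.

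miR-200c-3p, its counterpart at 12p13, ranged from 1195 to 1747 in control (median 1509) and from 1357 to 1856 with telmisartan (median 1719). Only 2 of the 8 telmisartan arrays lay above every control array. Its log2 fold change was 0.21 (SE 0.09, 95% confidence interval 0.01 to 0.40), and it did not pass after adjustment (limma adjusted p = 0.166).

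miR-429, the last miRNA of the 1p36 cluster, ranged from 87.8 to 176 in control (median 142) and from 77.1 to 134 with telmisartan (median 92.9). The groups overlapped, with 3 of the 8 telmisartan arrays below every control array. The log2 fold change was -0.39 (SE 0.18, 95% confidence interval -0.76 to -0.02) and did not pass either (limma adjusted p = 0.161).

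The 5p arms were dimmer. miR-200a-5p ranged from 14.985 to 34.2 in control (median 22.7) and from 12.5 to 23.3 with telmisartan (median 17.6). The log2 fold change was -0.42 (SE 0.20, limma adjusted p = 0.197), and 2 of the 8 telmisartan arrays lay below every control array. With the replicate number as a block it passed the threshold (limma adjusted p = 0.0276).

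miR-200b-5p ranged from 16.6 to 42.2 in control (median 27.8) and from 20.6 to 42.2 with telmisartan (median 28.5). The groups shared nearly their whole range, and the log2 fold change was 0.14 (SE 0.22, limma adjusted p = 0.796).

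The 5p arms of the 12p13 hairpins were near the detection limit, which lay 1.19 to 5.27 above background. miR-141-5p was detected on 6 of 8 control arrays (2.77 to 8.03 above background, median 4.26) and on 6 of 8 telmisartan arrays (2.53 to 7.24, median 3.67). miR-200c-5p was detected on 5 of 8 control arrays (3.94 to 5.32, median 4.45) and on 4 of 8 telmisartan arrays (2.63 to 5.71, median 3.24). A difference between the groups was not measurable for either at this brightness, and no test was made.

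**Figure D2:**
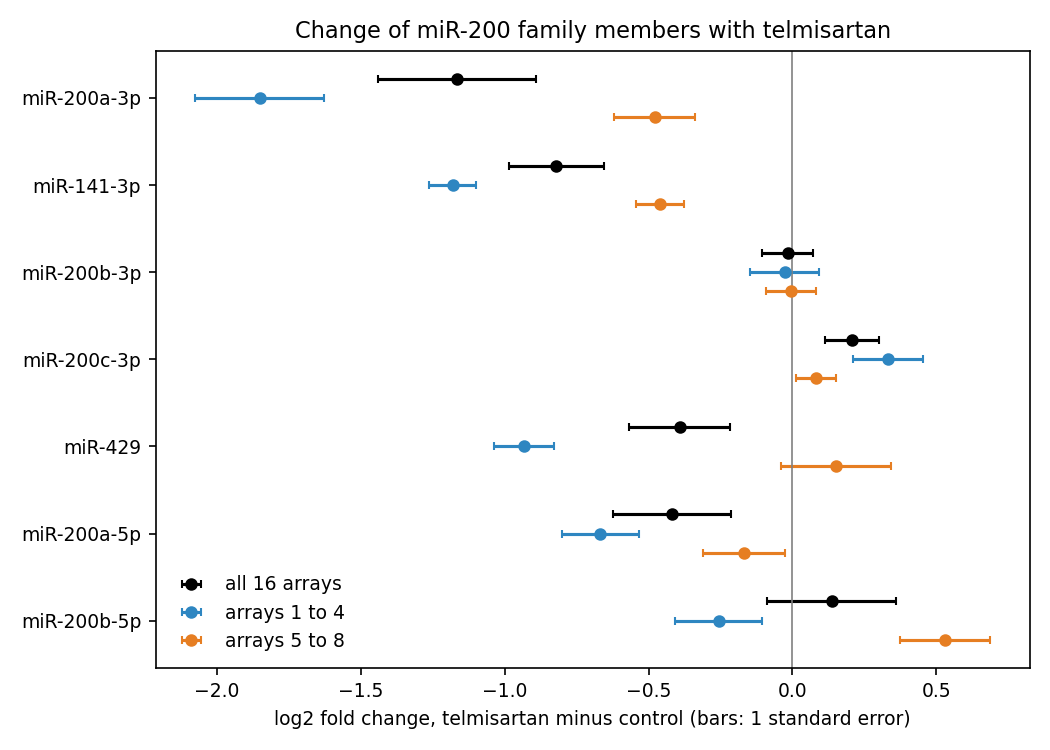
Log2 fold change, telmisartan minus control (horizontal axis), of the 7 tested members over all 16 arrays (black) and within arrays 1 to 4 (blue) and 5 to 8 (orange), with bars of 1 SE. miR-200a-3p and miR-141-3p lie below 0 in all 3 cases, miR-200b-3p stays near 0, and miR-429 lies at -0.93 within arrays 1 to 4 and at 0.15 within arrays 5 to 8.

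To set the seed against the locus, the members were combined within each array. The seed contrast was the mean log2 value of miR-141-3p and miR-200a-3p minus that of miR-200b-3p, miR-200c-3p and miR-429. The locus contrast was the mean of the 3p members from 1p36 minus that of the 3p members from 12p13. Since probes differ in brightness, the size of a contrast says nothing about relative abundance, and only its difference between groups is read. These sums over members were not tested, and they restate the values of the members without adding evidence. A change of miR-200a-3p and miR-141-3p alone would also shift the locus contrast, since each makes up a different share of its cluster.

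The seed contrast ranged from -1.76 to -0.42 in control (median -1.17) and from -2.32 to -1.74 with telmisartan (median -2.14). Hence 7 of the 8 telmisartan arrays lay below every control array. The means were -1.15 ± 0.53 and -2.07 ± 0.19 (SD, n = 8 each), a difference of -0.93 on the log2 scale. It was -0.92 with quantile normalization over all probes detected on each array and -0.94 with median scaling. A factor per array cancels in this contrast, so median scaling could not move it from its value with no scaling. The untreated sets differed in the seed contrast by as much, at -0.67 ± 0.17 for controls 1 to 4 and -1.63 ± 0.09 for controls 5 to 8 (SD, n = 4 each), a difference of -0.95. The locus contrast ranged from -0.94 to -0.03 in control and from -1.03 to -0.43 with telmisartan. Its means were -0.42 ± 0.29 and -0.64 ± 0.21 (SD, n = 8 each), a difference of -0.22. Here 1 telmisartan array lay below every control array. The SD of the control arrays includes the difference between the control sets, which was -0.46 in the locus contrast.

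Ratios of a pair of members were then taken on each array. At 1p36, the log2 ratio of miR-200a-3p to miR-200b-3p changed by -1.15, that of miR-200a-3p to miR-429 by -0.77 and that of miR-429 to miR-200b-3p by -0.38. At 12p13, the log2 ratio of miR-141-3p to miR-200c-3p changed by -1.03, and between the control sets it differed by -1.20. Between the clusters, the ratio of miR-200c-3p to miR-200b-3p changed by 0.22, that of miR-141-3p to miR-200a-3p by 0.35 and that of miR-429 to miR-200c-3p by -0.60. Within arrays 1 to 4 the ratio of miR-200a-3p to miR-429, which crosses the seeds, changed by -0.92 and that of miR-429 to miR-200c-3p, which keeps the seed, by -1.27, so the ratios across seeds did not all move more than those within a seed. Between the arms of a hairpin, the ratio of miR-200a-3p to miR-200a-5p changed by -0.75 and that of miR-200b-3p to miR-200b-5p by -0.15.

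**Figure D3:**
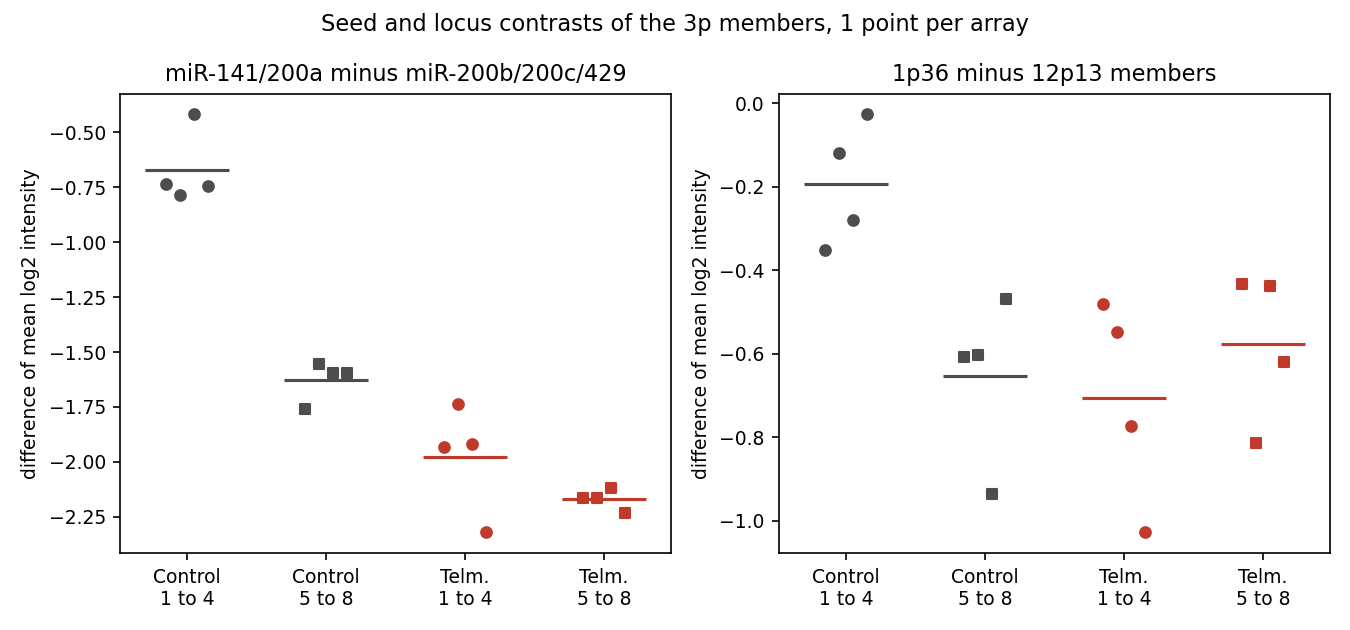
Seed contrast (left, mean log2 of miR-141-3p and miR-200a-3p minus that of miR-200b-3p, miR-200c-3p and miR-429) and locus contrast (right, mean log2 of the 1p36 minus the 12p13 3p members), with 1 point per array and a line at the mean of each set of 4 arrays. The seed contrast is -2.32 to -1.74 on the telmisartan arrays and reaches down to -1.76 on the control arrays, a small overlap, while the locus contrast overlaps between all sets apart from control arrays 1 to 4.

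The labels name no batch, but the control arrays numbered 1 to 4 and 5 to 8 differed in most miRNAs, and the members were therefore described within these sets. This split was taken from earlier results of these data. The p-values between the sets, and of their interaction with treatment, are thus no independent test of it. Between the control sets 6 of the 7 members differed, where 72.0% of all 382 probes did (limma adjusted p under 0.05), so the share of members was not far from that of all probes. Lower on arrays 5 to 8 were 5 members and 35.1% of all probes, and higher were 1 member and 36.9%. On control arrays 5 to 8, miR-200a-3p was at 0.387 of its level on control arrays 1 to 4, miR-200b-5p at 0.477, miR-200a-5p at 0.528, miR-141-3p at 0.549 and miR-429 at 0.648. miR-200c-3p was higher there, at 1.26 of the level on arrays 1 to 4 (limma adjusted p = 0.00851), and miR-200b-3p was at 0.875 and did not pass (limma adjusted p = 0.116). Between the telmisartan sets 0 of the 7 members passed the threshold, where 10.5% of all probes did (limma adjusted p from 0.0638 to 0.993).

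Within arrays 1 to 4, 4 of the 7 members fell and 0 rose, where 18.3% of all probes fell. miR-200a-3p was at 0.277 of control (limma adjusted p = 0.000641), miR-141-3p at 0.441 (3.91e-05), miR-429 at 0.523 (0.000441) and miR-200a-5p at 0.630 (0.00685). miR-200b-3p, miR-200c-3p and miR-200b-5p were at 0.982, 1.26 and 0.837 and did not pass in this fit of 8 arrays, in which 19.4% of all probes rose. For miR-200c-3p the adjusted p was 0.0612 in that fit and 0.0164 when all 16 arrays gave the spread (limma).

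Within arrays 5 to 8, 2 of the 7 members fell, where 7.59% of all probes did. They were the same pair, with miR-200a-3p at 0.717 of control (limma adjusted p = 0.0495) and miR-141-3p at 0.727 (0.0101). When all 16 arrays gave the spread, the adjusted p of miR-200a-3p was 0.0838 (limma). miR-429, at 0.523 of control in the other set, was at 1.11 of control here (limma adjusted p = 0.557). miR-200b-5p was at 1.44 (limma adjusted p = 0.0504, and 0.0252 when all 16 arrays gave the spread).

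The difference between the sets was itself tested as an interaction of treatment and array set, which passed for 4 of the 7 members, where 35.3% of all probes passed. All 4 were higher within arrays 5 to 8, where 16.5% of all probes were. The log2 fold change within arrays 5 to 8 was higher than within arrays 1 to 4 by 1.37 for miR-200a-3p (SE 0.28, limma adjusted p = 0.00534), by 1.08 for miR-429 (SE 0.22, 0.00620), by 0.72 for miR-141-3p (SE 0.11, 0.00118) and by 0.79 for miR-200b-5p (SE 0.23, 0.0207). It was 0.50 for miR-200a-5p, 0.02 for miR-200b-3p and -0.25 for miR-200c-3p, which did not pass (limma adjusted p = 0.0617, 0.915 and 0.163). The seed contrast changed by -1.31 within arrays 1 to 4 and by -0.54 within arrays 5 to 8. The locus contrast changed by -0.51 within arrays 1 to 4 and by 0.08 within arrays 5 to 8, so that its direction was not shared by the sets.

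The order of the sets therefore differed between members. For miR-141-3p, control arrays 1 to 4 were highest (329 to 372), followed without overlap by control arrays 5 to 8 (173 to 208), telmisartan arrays 1 to 4 (145 to 169) and, overlapping these, telmisartan arrays 5 to 8 (132 to 153). For miR-429, control arrays 1 to 4 were also highest (147 to 176), while control arrays 5 to 8 (87.8 to 136), telmisartan arrays 5 to 8 (87.8 to 134) and telmisartan arrays 1 to 4 (77.1 to 98.1) overlapped. For miR-200c-3p, control arrays 1 to 4 were lowest (1195 to 1465), and the other sets lay between 1357 and 1856.

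The members were then compared by how they varied over the 16 arrays. These correlations are descriptions, since the arrays share the treatment, the array sets and the quantile normalization. miR-200a-3p and miR-141-3p had a Pearson's r of 0.95 (Spearman's rho 0.92) over 16 arrays, and each was the probe most like the other among 379 other probes that varied. Their r was 0.98 over the 8 control arrays, 0.30 over the 8 telmisartan arrays and 0.49 after the mean of each set of 4 arrays had been removed. miR-200c-3p ran opposite to both (r = -0.79 with miR-200a-3p and -0.78 with miR-141-3p), which became -0.23 with miR-200a-3p and close to 0 with miR-141-3p after removal of the set means. miR-200b-3p and miR-200a-3p, neighbours in 1 cluster, had an r of 0.40, and miR-200b-3p and miR-200c-3p, which share a seed, had an r of -0.52. For miR-429, r was 0.77 with miR-200a-3p and 0.19 with miR-200b-3p, and for the pair of 5p arms it was 0.72.

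**Figure D4:**
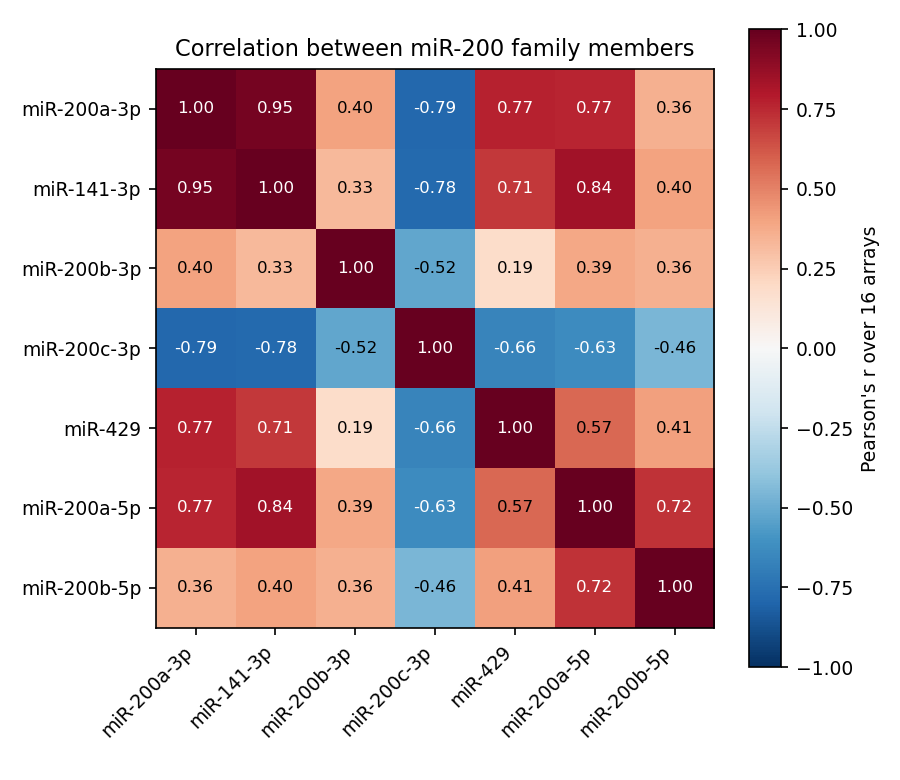
Pearson's r between the log2 normalized intensities of the 7 tested members over 16 arrays, with red for positive and blue for negative values. The darkest cell off the diagonal joins miR-200a-3p and miR-141-3p (0.95), and the row of miR-200c-3p is negative apart from the diagonal.

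Outside the family, the probes most like miR-200a-3p were miR-4632-5p (r = 0.94), miR-18b-5p (0.90), miR-187-5p (0.89), miR-18a-5p (0.89) and miR-7-5p (0.88). Those most like miR-141-3p were miR-18a-5p (0.95), miR-7114-5p (0.94), miR-301a-3p (0.93), miR-5100 (0.92) and miR-7-5p (0.92). The lists of this pair thus had miR-18a-5p and miR-7-5p in common. For miR-200b-3p the highest values were lower, from miR-148a-3p (0.71) through miR-181a-3p (0.66), miR-361-5p (0.64) and miR-96-5p (0.62) to miR-30e-5p (0.62). For miR-200c-3p they were miR-5096 (0.88), miR-1273g-3p (0.83), miR-6768-5p (0.81), miR-663a (0.81) and miR-1237-5p (0.81). Each r was taken over 16 arrays.

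The family acts on the epithelial-mesenchymal transition (EMT), and other miRNAs described in that process were counted beside it. Of 18 miRNAs described as restraining EMT, 14 were tested, of which 1 rose, 1 fell and 12 did not pass, where 9.69% of all probes rose and 7.33% fell. Their median log2 fold change was 0.15, beside -0.01 over all probes. miR-30d-5p rose 1.51-fold (limma adjusted p = 0.000265), and miR-194-5p, also a marker of columnar gut epithelium, was at 0.819 of control (limma adjusted p = 0.0313). Of 10 miRNAs described as promoting EMT or invasion, 7 were tested, and 1 rose, 0 fell and 6 did not pass, with a median of 0.19. With 1 or 0 calls in a direction, neither list is read as different from all probes. The EMT-promoting miRNA that rose was miR-222-3p, by 1.57-fold (limma adjusted p = 0.00222).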

How the data were processed

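Total RNA of OE19 cells was labelled and hybridized to a human miRNA Oligo chip (version 21.0), scanned with a 3D-Gene Scanner 3000 and read with 3D-Gene extraction software version 1.2 per the labels and the study's methods. For every spot the authors deposited a raw intensity and a background-subtracted one, where the background of an array was the mean of its blank spots without the highest and lowest 5%. Probes above that mean by 2 SD counted as detected. The authors deposited quantile-normalized intensity values for the 382 probes detected on all 16 arrays (linear scale, median 37.7 per array). Quantile normalization of the background-subtracted values rebuilt them to a relative difference of 4.88e-10. The authors kept 5 of the 10 spots marked not good in these values (none of a member). Such spots were missing with median scaling and with no scaling, and were kept with normexp. With quantile normalization over detected probes they were set, like undetected spots, to the lowest normalized value. On no array detected were 343 of the 2565 probes.

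Log2 of the authors' normalized values was tested by lmFit and eBayes of limma (version 3.58.1, R 4.3.3), without pseudocount or further filter, telmisartan minus control, with Benjamini-Hochberg adjustment over all 382 probes. Fold changes within arrays 1 to 4 and 5 to 8 came from separate fits of 8 arrays, and the interaction and the differences between sets from a fit of all 16 with 4 groups. Precision is limited by the number of arrays. The named miRNAs were the 9 members, the 5 probes outside the family most correlated with each of miR-200a-3p, miR-141-3p, miR-200b-3p and miR-200c-3p, the cell type markers, and the listed EMT miRNAs that passed. The members, the lists and the split into arrays 1 to 4 and 5 to 8 were chosen with earlier results of these data known. Both groups number their arrays 1 to 8 in the labels. Same-numbered arrays deviated together in all 8 pairs (correlation of deviations from the group means 0.149 to 0.864, median 0.316). Only 6 of 16 arrays correlated best with their own number. These deviations keep the difference between the array sets, which same-numbered arrays share, so they cannot show pairing by number. The main fit was unpaired, and the replicate number was used as a block in an alternative. Alternatives were median scaling, no scaling, quantile normalization over the probes detected on each array, normexp (offset 50) and a pseudocount of 16. Others were blocks for the replicate number or the array set, each set alone, each array left out and an intensity trend. A t-test and an exact form of the Mann-Whitney test, which the study's methods name for the arrays, were also run. The main fit was tested on simulated data with independent noise and no array sets, which cannot show how it behaves with such sets. Each miRNA had 1 probe, and probe sequences were not used here, so signal shared between probes of similar miRNAs was not tested. The sequence of miR-141-5p was not used here. The xenograft arrays were not analysed here.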

Additional observations from a re-analysis of the deposited data

Results flagged for a closer look

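The effect of telmisartan differed between arrays 1 to 4 and arrays 5 to 8 for 4 members by the test of the interaction. The log2 fold change was higher within arrays 5 to 8 by 1.37 for miR-200a-3p, 1.08 for miR-429, 0.72 for miR-141-3p and 0.79 for miR-200b-5p (limma adjusted p = 0.00534, 0.00620, 0.00118 and 0.0207). For miR-429 and miR-200b-5p the direction also differed, at 0.523 and 1.11 of control and at 0.837 and 1.44 of control. In all 4 the control arrays of the sets differed (limma adjusted p from 3.79e-06 to 0.00276), while the telmisartan arrays did not pass (0.0689 to 0.993). The sets were chosen with earlier results of these data known, and what separates them was not tested.

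The value of miR-200c-3p on telmisartan array 2 (1357) lay apart from the other telmisartan arrays (1614 to 1856). Its gap to the nearest array was 0.554 of the group's range, above Dixon's critical value at the 95% level for 8 arrays. This was 1 of 18 groups examined, and chance gives about 1 in 20.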

How the results depend on the processing

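The calls rested on the scaling of the arrays. Over all probes 37 rose and 28 fell. With quantile normalization over the probes detected on each array 0 rose and 0 fell of 646 (7 at an unadjusted p under 0.05, limma, median shift 0.24), with median scaling 17 and 13, with no scaling 19 and 12 (median shift 0.18), with arrays 1 to 4 only 74 and 70, and with the array sets as a block 48 and 49. The other settings gave 34 to 44 rises and 23 to 38 falls, and leaving out each array 30 to 38 and 21 to 32. The replicate block gave 37 and 38, and of the members it changed the call of miR-200a-5p alone. Of the members 2 fell. This became 0 with quantile normalization over detected probes (1 at an unadjusted p under 0.05 of 8 tested), 0 with median scaling and 4 with arrays 1 to 4 only. With the array sets as a block 3 members fell, since miR-200a-5p passed there too. Without each array in turn 2 members fell throughout.

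miR-141-3p and miR-200a-3p were lower with telmisartan in 12 of 12 other settings and passed in 10 (limma or the exact test, adjusted p from 3.91e-05 to 1 and from 0.000641 to 1). With each array left out they stayed at -0.91 to -0.75 and -1.29 to -1.03 on the log2 scale. The seed contrast ranged from -1.31 to -0.54 over the settings and from -1.01 to -0.82 with each array left out. The locus contrast, -0.22, changed to -0.51 with arrays 1 to 4 only and 0.0779 with arrays 5 to 8 only (-0.29 to -0.16 with each array left out). miR-200b-3p, at -0.02, changed sign to 0.038 with quantile normalization over detected probes, to 0.16 with no scaling, to 0.0307 without control replicate 4 and to 0.0058 without telmisartan replicate 4 (range over arrays left out -0.0571 to 0.0307). miR-429 changed sign within arrays 5 to 8 (0.15) and miR-200b-5p within arrays 1 to 4 (-0.26). The causes were not tested. Brightness limits the 5p arms of 12p13, which were detected on 4 to 6 of 8 arrays of a group.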
